A study of Mus musculus with 8 samples.

Results

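The elastic fibre genes described here are 10 genes whose products build or cross-link elastic fibres: the elastin gene Eln, the fibrillin genes Fbn1 and Fbn2, the fibulin genes Fbln1, Fbln2 and Fbln5, the lysyl oxidase genes Lox and Loxl1, and the microfibril-associated genes Mfap4 and Mfap5. They were taken by symbol from a table of 23358 gene rows, each symbol had 1 row, and all 10 passed the filter on low values, an average over the 8 samples of 1 RPKM or more, as did 12129 rows in all. RPKM divides a gene's reads by its length in kilobases and by the library's mega-reads, so levels can be compared between genes. RNA was sequenced in bulk from the outflow vein of an arteriovenous fistula, a join between carotid artery and jugular vein. All samples came from the C57BL6J strain under a model of chronic kidney disease; the fistula followed 28 days after that model was begun, and the vein was taken 3 days after the fistula. In the MSC group (4 samples), 250000 mesenchymal stem cells, donated by a C57 mouse of matching sex, were laid on the outer layer of the vein at surgery, and the vehicle group (4 samples) had vehicle. The protocol text of the vehicle samples describes the cells too, so the groups rest on the treatment label. The labels used here give no age, and they do not say whether each sample is a separate animal, so p-values cover only sample-to-sample spread, which may be technical. RNA of the donor cells cannot be told apart from that of the vein. The comparison asks how the cell treatment changes gene expression in a vein prone to stenosis, the narrowing named in the series title.

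Elastic fibres give arteries and veins their recoil. Cells secrete tropoelastin, the product of Eln, which is laid onto a scaffold of fibrillin microfibrils. Fibulins and microfibril-associated proteins link the parts, and lysyl oxidases cross-link tropoelastin into an insoluble polymer. In vessels the proteins are made mainly by smooth muscle cells and adventitial fibroblasts, most of them during growth, and the mature polymer turns over slowly. RNA levels describe transcript, not the amount of fibre present.

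Promoter sequences were on hand in RefSeq (GRCm38.p6) for 4 of the 10 genes: Fbn1, Fbln1, Fbln2 and Fbln5. The 2 most abundant of these are shown. Their RNA levels, like those of Fbln5, lay far apart between vehicle replicates 1 and 4, as described below. Each runs 5′ to 3′ on the gene's strand, from 250 bases before the RefSeq start to 50 after it, and capitals mark matches to the GC box GGGCGG on either strand.
Fbn1, chr2:125506389-125506688, minus strand: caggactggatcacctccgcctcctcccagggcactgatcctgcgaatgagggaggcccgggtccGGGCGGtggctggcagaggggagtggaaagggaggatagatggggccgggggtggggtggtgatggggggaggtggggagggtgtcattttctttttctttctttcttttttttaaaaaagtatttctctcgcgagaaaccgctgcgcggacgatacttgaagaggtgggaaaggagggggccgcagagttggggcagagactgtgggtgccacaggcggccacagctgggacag
Fbln2, chr6:91212514-91212813, plus strand: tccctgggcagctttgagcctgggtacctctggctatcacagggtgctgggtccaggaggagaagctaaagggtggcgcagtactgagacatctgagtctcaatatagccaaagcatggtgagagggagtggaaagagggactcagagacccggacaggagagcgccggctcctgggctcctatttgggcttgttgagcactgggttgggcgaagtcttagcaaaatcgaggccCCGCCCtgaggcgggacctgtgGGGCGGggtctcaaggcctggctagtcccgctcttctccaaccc
The Fbn1 window held 1 GC box and the Fbln2 window held 2, with no overlap between matches. Of 32851 promoter windows of the same length, 35.7% held at least 1. Neither window held a TATA box (TATAAA, in 13.6% of windows), an AP-1 site (TGANTCA, in 7.81%), a TEAD site (GGAATG, in 14.7%) or a CArG box (in 1.63%), searched on both strands. These are letter matches in these windows and say nothing of binding. Both windows lie within the gene spans given below, which begin before the RefSeq starts used here. Sequence before those earlier starts was not searched.

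The RNA recovered as whole reads from the RPKM steps came to between 29.9 and 38.2 mega-reads per MSC sample and between 26.9 and 33.3 per vehicle sample. Members had from 526 to 65198 reads per sample. The tissue label was checked against marker genes, summed as RPKM over each list. Endothelial markers (7 of 7 tested) summed to 351 to 578 in MSC and 459 to 575 in vehicle veins, and contractile smooth muscle markers (8 of 10 tested) to 169.6 to 301 and 138 to 306. Fibroblast and adventitial markers (10 of 10) summed to 3142 to 4291 in MSC and 3219 to 5145 in vehicle veins. Arterial endothelial markers (5 of 6) were low, at 13.4 to 21.5 in MSC and 10.7 to 27.2 in vehicle veins. Other tissues were present in unequal amounts: adipocyte markers (9 of 9) summed to 386 to 1873 in MSC and 3241 to 4755 in vehicle veins, without overlap, and skeletal muscle markers (10 of 10) to 11.2 to 685 and 4.85 to 517. Macrophage markers (6 of 6) summed to 2965 to 4982 in MSC and 2312 to 3156 in vehicle veins, and neutrophil markers (4 of 4) to 544 to 1316 and 203 to 768. Cartilage, thyroid and mesothelial markers each summed to under 5 RPKM in every sample, and no marker gene was at 0 in all samples.

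Eln, the gene of the elastic polymer itself, was expressed strongly and unevenly in both groups. Its level was 142, 65.9, 109 and 85.4 RPKM in MSC replicates 1 to 4, against 131, 91.2, 61.3 and 35.3 RPKM in vehicle replicates 1 to 4. The groups overlapped, with the highest sample in the MSC group and the lowest in the vehicle group. The mean was 101 ± 32.9 RPKM in MSC veins, against 79.7 ± 41.1 RPKM in vehicle veins (SD over 4 samples a group). The log2 fold change of RPKM + 1 was 0.43 (SE 0.38, 95% interval -0.42 to 1.28, limma adjusted p = 0.605). That interval reaches from 0.749 to 2.44 times the vehicle level. In bulk tissue, fewer cells that make a transcript cannot be told apart from less transcript per cell, here and below. Eln lies on chromosome 5 (GRCm38, GENCODE vM21, 134702593 to 134747323, minus strand). Its exons overlap those of Gm30003 on the opposite strand. Strand use in counting, not given in the sources used here, leaves values of such overlapping genes uncertain.

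The microfibril genes had opposite signs between members, none of them past the test. Fbn1, the main fibrillin of adult tissue, was at 89.4, 91.2, 87.9 and 101 RPKM in MSC veins, against 143, 110.2, 102 and 62.9 RPKM in vehicle veins. The 4 MSC samples lay close together inside the vehicle range, and the log2 fold change was -0.12 (SE 0.21, limma adjusted p = 0.821). Fbn2, a fibrillin of development, was barely expressed: 1.37, 1.63, 1.079 and 3.05 RPKM in MSC veins, against 1.29, 1.29, 1.68 and 1.28 RPKM in vehicle veins. Its MSC range contained the whole vehicle range, and MSC replicate 4 stood above the other 7 samples (log2 fold change 0.18, SE 0.19, limma adjusted p = 0.682). Mfap4, which binds elastin, fibrillins and lysyl oxidase, was at 91.6, 50.4, 58.8 and 53.0 RPKM in MSC veins, against 59.6, 52.0, 38.7 and 37.1 RPKM in vehicle veins. Its ranges overlapped, although the lowest MSC sample lay above vehicle replicates 3 and 4. Mfap4 had the lowest p of the 10 genes (log2 fold change 0.42, SE 0.21, 95% interval -0.06 to 0.90, unadjusted p = 0.0815, limma adjusted p = 0.365). Mfap5, which encodes the microfibril-associated glycoprotein MAGP-2, was at 106, 83.3, 108 and 76.2 RPKM in MSC veins, against 139, 113, 106 and 65.6 RPKM in vehicle veins. The MSC values again lay inside the vehicle range (log2 fold change -0.15, SE 0.22, limma adjusted p = 0.778). Exons of Fbn1, Fbn2 and Mfap4 overlap Gm9913, Gm26507 and Mapk7 on the opposite strand. Fbn1 lies on chromosome 2 (125300594 to 125507993, minus strand), Fbn2 on chromosome 18 (58008623 to 58210487, minus strand), Mfap4 on chromosome 11 (61485431 to 61488900, plus strand) and Mfap5 on chromosome 6 (122505845 to 122529290, plus strand).

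Among the fibulins, Fbln2 stood far above Fbln1 and Fbln5 in level in every sample. Fbln2, a fibulin that binds fibrillin and tropoelastin and is made in remodelling vessels, was the most abundant of the 10 genes, at 150.2, 157, 132 and 168 RPKM in MSC veins, against 185, 129.7, 123 and 92.1 RPKM in vehicle veins. All MSC values lay above 3 of the 4 vehicle values and below vehicle replicate 1 (log2 fold change 0.23, SE 0.19, limma adjusted p = 0.567). Fbln5, which is needed for elastic fibre assembly in mice, was at 6.23, 6.43, 6.64 and 5.43 RPKM in MSC veins, against 10.4, 10.6, 6.43 and 4.98 RPKM in vehicle veins. Vehicle replicates 1 and 2 stood above every other sample, and the log2 fold change was -0.29 (SE 0.20, limma adjusted p = 0.518). Fbln1, a fibulin of basement membranes and elastic fibres, was at 6.23, 8.16, 5.20 and 5.70 RPKM in MSC veins, against 7.26, 8.003, 7.87 and 5.37 RPKM in vehicle veins. Both groups spanned nearly the same range (log2 fold change -0.15, SE 0.15, limma adjusted p = 0.646). Fbln1, Fbln2 and Fbln5 lie on chromosome 15 (85205949 to 85286535, plus strand), chromosome 6 (91212455 to 91272540, plus strand) and chromosome 12 (101746565 to 101819055, minus strand).

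The cross-linking enzymes had mean levels that were almost equal between groups and a far wider spread in vehicle veins. Lox, the lysyl oxidase that acts on collagen and elastin, was at 102, 97.9, 84.8 and 116 RPKM in MSC veins, against 185, 101, 101 and 62.5 RPKM in vehicle veins. The MSC values lay inside the vehicle range, and the means were 100.2 ± 12.8 RPKM in MSC veins, against 113 ± 51.8 RPKM in vehicle veins (SD over 4 samples a group). The log2 fold change was -0.07 (SE 0.27, 95% interval -0.68 to 0.55, limma adjusted p = 0.930). Loxl1, the family member tied most closely to elastin, was at 37.4, 40.7, 38.8 and 42.1 RPKM in MSC veins, against 52.5, 36.7, 39.9 and 28.2 RPKM in vehicle veins. Its means differed by less than 1 SD of either group (39.7 ± 2.08 RPKM in MSC veins, against 39.3 ± 10.1 RPKM in vehicle veins, SD over 4 samples a group), and the log2 fold change was 0.047 (SE 0.16, limma adjusted p = 0.916). Lox lies on chromosome 18 (52516067 to 52529867, minus strand, with an exon that overlaps AC161119.1 on the opposite strand) and Loxl1 on chromosome 9 (58287738 to 58313186, minus strand).

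**Figure D1:**
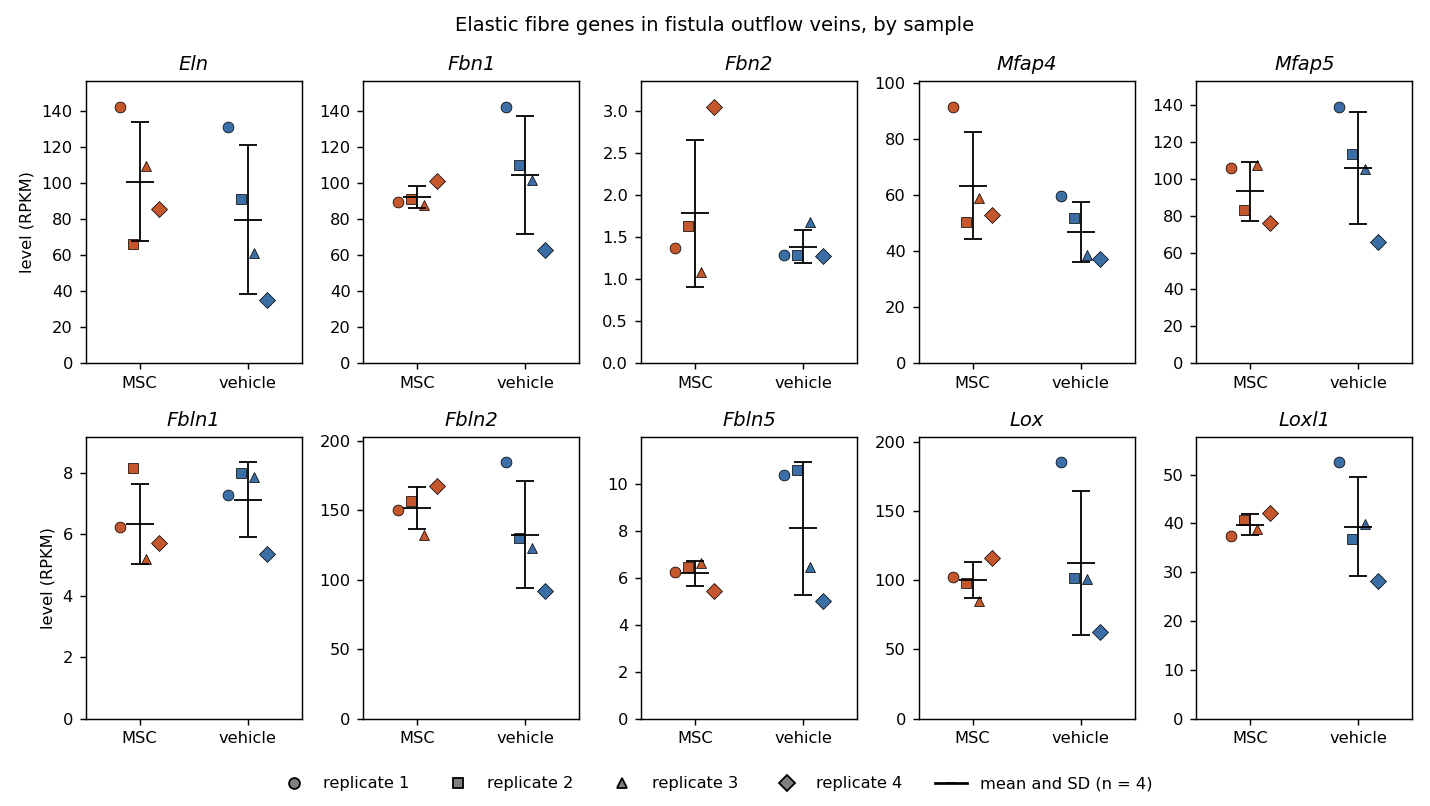
Level (RPKM, axes from 0, one scale per gene) of the 10 genes in each of 4 MSC and 4 vehicle samples. Symbols are replicates and bars are mean and SD (n = 4). The groups overlap in all 10 panels, and vehicle replicate 4 is the lowest vehicle sample in each.

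None of the 10 genes passed the test. In limma 0 of 10 had an adjusted p under 0.05 and 0 of 10 had an unadjusted p under 0.05, against 0.231% and 16.5% of the 12129 genes tested, and voom on the recovered reads also gave 0 adjusted calls. By direction, the adjusted calls were 0.0247% of genes higher and 0.206% lower in MSC veins. Groups did not overlap in 0 of the 10, against 9.78% of all genes tested (5.61% higher and 4.17% lower in MSC veins). Log2 fold changes were above 0 in 5 genes and below 0 in 5, with a median of -0.01, against 0.04 over all genes tested. The intervals bound what these samples could hide: the upper 95% bound was highest for Eln, at 2.44 times the vehicle level, and the lower bound was lowest for Fbln5, at 0.597 times. The directions of Fbn1, Fbn2, Lox and Loxl1 turned when 1 sample was left out: Fbn1 to 0.050 and Lox to 0.21 without vehicle replicate 1, Lox to 0.0089 without MSC replicate 3, Fbn2 to -0.017 without MSC replicate 4, and Loxl1 to -0.098 without vehicle replicate 4. Eln ran from 0.10 without vehicle replicate 4 to 0.72 without vehicle replicate 1, on the same log2 scale.

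**Figure D2:**
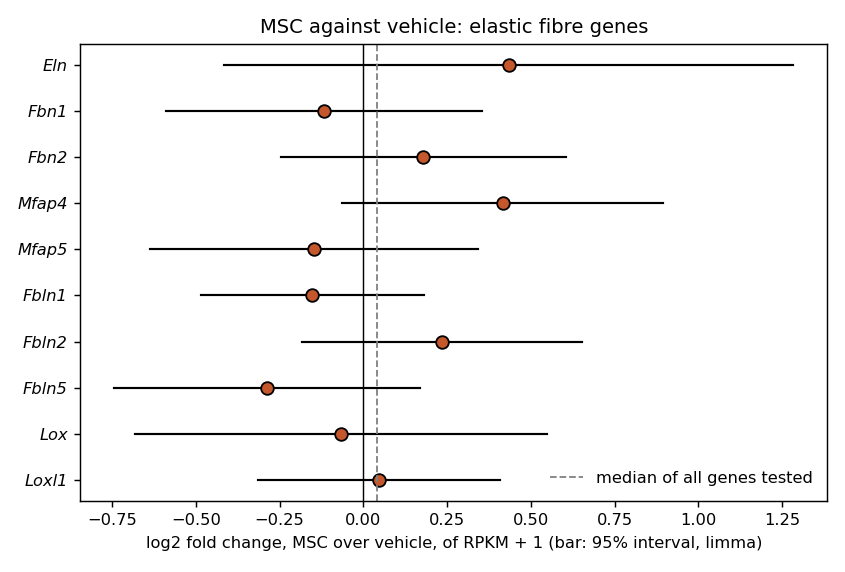
Log2 fold change of RPKM + 1, MSC over vehicle, for each gene (point) with its 95% interval from limma (bar, 4 samples a group). The dashed line is the median of all genes tested (0.04), and each bar includes 0.

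Fbln2, Eln, Lox, Mfap5 and Fbn1 averaged between 92.4 and 152 RPKM in MSC and between 79.7 and 132 RPKM in vehicle veins, and neighbours in the order of either group overlapped in range. Among these 5, Eln came next after Fbln2 in MSC veins and last in vehicle veins, where Fbn1 lay above it in 4 of 4 samples. Mfap4 and Loxl1 came next, at 63.5 and 39.7 RPKM in MSC and 46.8 and 39.3 RPKM in vehicle veins. Mfap4 lay above Loxl1 in all 4 MSC samples without overlap and in 3 of 4 vehicle samples with overlap. Fbln1 and Fbln5 followed at 6.32 and 6.18 RPKM in MSC and 7.13 and 8.09 RPKM in vehicle veins, and did not differ beyond their spread. Fbn2 was last in both groups without overlap with its neighbour. Among all genes tested, Fbln2 stood at the 97.7th percentile of mean level and Fbn2 at the 6.64th.

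Vehicle replicates 1 and 4 lay far apart in most of these genes. Vehicle replicate 4 was the lowest vehicle sample for 10 of 10 genes, against 34.9% of all genes tested, and the lowest of all 8 samples for 8 of 10, against 24.0%. Vehicle replicate 1 was the highest vehicle sample for 7 of 10 genes, against 25.2% of all genes tested. Replicate 1 was at least 1.5 times replicate 4 for 8 of 10 genes, against 8.02% of all genes tested. Summed over the 10 genes, the level was 733, 602, 633 and 655 RPKM in MSC replicates 1 to 4, against 914, 654, 587 and 395 RPKM in vehicle replicates 1 to 4. The 4 MSC sums lay inside the vehicle range, between replicates 1 and 3 of that group. The SD on the log2 scale was larger in vehicle than in MSC veins for 7 of 10 genes, against 66.2% of all genes tested, so that count was near the background. Its median was 0.21 in MSC and 0.43 in vehicle veins for the 10 genes, against 0.12 and 0.17 for all genes tested. These counts describe the samples and were given no test.

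Fibroblast and adipocyte marker sums had their extremes in vehicle replicates 1 and 4. Fibroblast and adventitial markers summed to 5145, 3846, 3661 and 3219 RPKM in vehicle replicates 1 to 4, and adipocyte markers to 3241, 3475, 3416 and 4755 RPKM. The vehicle sample with the highest elastic fibre sum thus had the highest fibroblast and the lowest adipocyte sum, and the sample with the lowest had the reverse. Not every fibroblast marker followed its sum: among vehicle samples Col1a1 was lowest in replicate 2 (385 RPKM) and Lum in replicate 3 (75.6 RPKM). Adipocyte markers were divided too. Among vehicle samples Adipoq, Plin1, Retn, Cfd and Lep were lowest in replicate 1, but Cidec and Pnpla2 were highest there (161 RPKM each). Fabp4 (1730 RPKM) and Lipe (51.9 RPKM) were lowest in vehicle replicate 2. In MSC replicates 1 to 4 fibroblast sums were 3981, 4291, 3142 and 4189 RPKM, in a different order from the elastic fibre sums. Contractile smooth muscle markers were lowest, at 138 RPKM, in vehicle replicate 1, which had the highest elastic fibre sum. In vehicle replicates 1 to 4, skeletal muscle markers summed to 517, 59.9, 4.85 and 116 RPKM, and neutrophil markers to 203, 768, 579 and 738 RPKM. Between groups, adipocyte sums did not overlap (386 to 1873 RPKM in MSC and 3241 to 4755 RPKM in vehicle veins). The part of these cells in the levels of the 10 genes was not tested.

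Members differed in how their sample profiles ran. Likeness was measured as the root mean square difference of log2(RPKM + 1), centred on each gene's mean over the 8 samples. Fbln2 and Loxl1 were the closest pair (0.13), followed by Fbn1 with Loxl1 (0.14) and Fbn1 with Lox (0.15). Eln and Fbn2 were the farthest apart (0.70). The member nearest to Eln was Mfap4 (0.33), while Eln lay 0.61 from a flat profile. Fbn2 and Mfap4 had nearest members at a like distance, Loxl1 (0.32) and Fbln2 (0.31), and Fbn2 lay 0.28 from a flat profile. Among all genes tested the 5 nearest to Eln were Pamr1 (0.27), Itgbl1 (0.28), the small nucleolar RNA gene Snord43 (0.33), C1qtnf2 (0.33) and Mfap4. Pamr1 was at 17.98, 8.83, 10.7 and 13.6 RPKM in MSC and 18.4, 14.1, 12.3 and 4.86 RPKM in vehicle veins. Like Eln, it was highest in replicate 1 of both groups and lowest of all in vehicle replicate 4. In MSC replicate 3 Eln lay 0.39 above its mean on the log2 scale, while Pamr1 lay below its mean of 12.6 RPKM. The gene nearest to Lox was Ltbp1 (0.12), which encodes a latent TGF-beta binding protein of the microfibril. The nearest to Fbn1, Fbn2, Fbln1, Fbln2, Fbln5, Loxl1, Mfap4 and Mfap5 were Ociad2, Ephb2, Mrpl22, Frmd6, Eps8, Kcnk6, Ephx1 and Pcsk6, at 0.07 to 0.17.

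**Figure D3:**
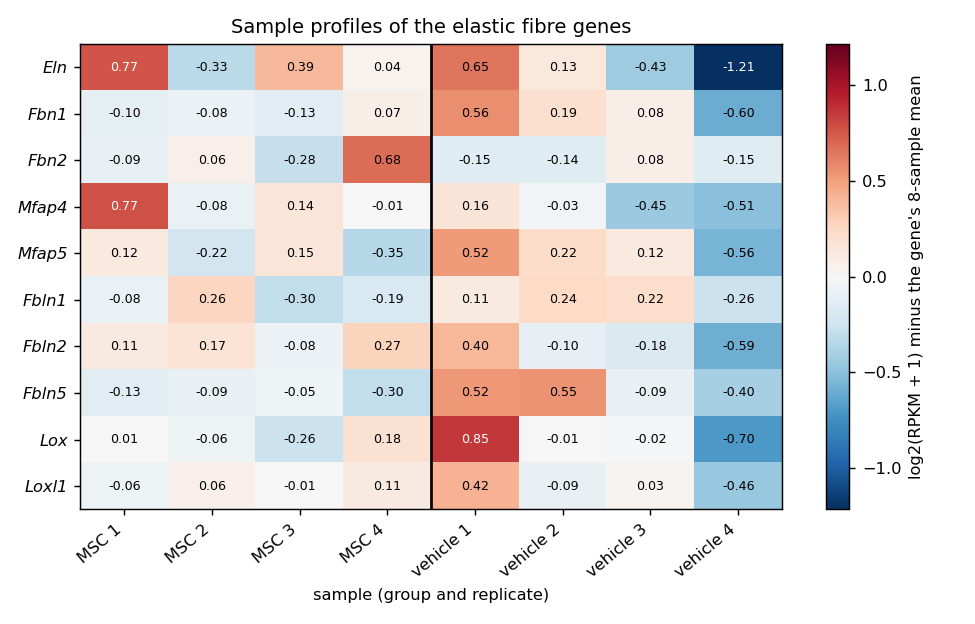
Log2(RPKM + 1) of each gene minus its mean over the 8 samples (red above, blue below), with MSC samples left of the line and vehicle samples right of it. Vehicle replicate 4 is below each gene's mean, down to -1.21 for Eln, and MSC replicate 1 is highest for Eln and Mfap4, both at 0.77.

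The balance between related members was compared as a share of their summed RPKM within each sample, for 5 shares, with a 2-sided exact permutation test (smallest possible p = 0.0286) and Benjamini-Hochberg adjustment over the 5. The share of Fbln5 among the 3 fibulins was 3.83%, 3.75%, 4.61% and 3.04% in MSC veins, against 5.13%, 7.13%, 4.69% and 4.86% in vehicle veins. The groups did not overlap, though MSC replicate 3 and vehicle replicate 3 lay close, and the difference was -1.64 percentage points (exact permutation p = 0.0286, adjusted p = 0.143), which did not pass the correction. With 1 sample left out, the difference ran from -1.91 to -1.09 points. Fbln2, at 92.1 to 185 RPKM, made up most of the summed level, so this share is mainly Fbln5 against Fbln2. The log2 fold changes were -0.29 for Fbln5 and 0.23 for Fbln2, and the groups overlapped for each gene. The share of Mfap5 in Mfap4 plus Mfap5 was 53.6%, 62.3%, 64.7% and 59.0% in MSC veins, against 70.04%, 68.6%, 73.2% and 63.9% in vehicle veins. Only MSC replicate 3 and vehicle replicate 4 crossed, and the difference of -9.02 points did not pass (exact permutation p = 0.0571, adjusted p = 0.143). Elastin made up 61.4%, 41.9%, 55.4% and 45.8% of Eln plus Fbn1 in MSC veins, against 47.9%, 45.3%, 37.5% and 35.9% in vehicle veins. Those groups overlapped (difference 9.49 points, exact permutation p = 0.143, adjusted p = 0.238). Lox made up 68.6% to 73.3% of Lox plus Loxl1 in MSC and 68.9% to 77.9% in vehicle veins, and Fbn2 made up 1.21% to 2.93% of the fibrillins in MSC and 0.895% to 1.99% in vehicle veins. Both of these overlapped (exact permutation p = 0.486 and 0.429, adjusted p = 0.486 for each).

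**Figure D4:**
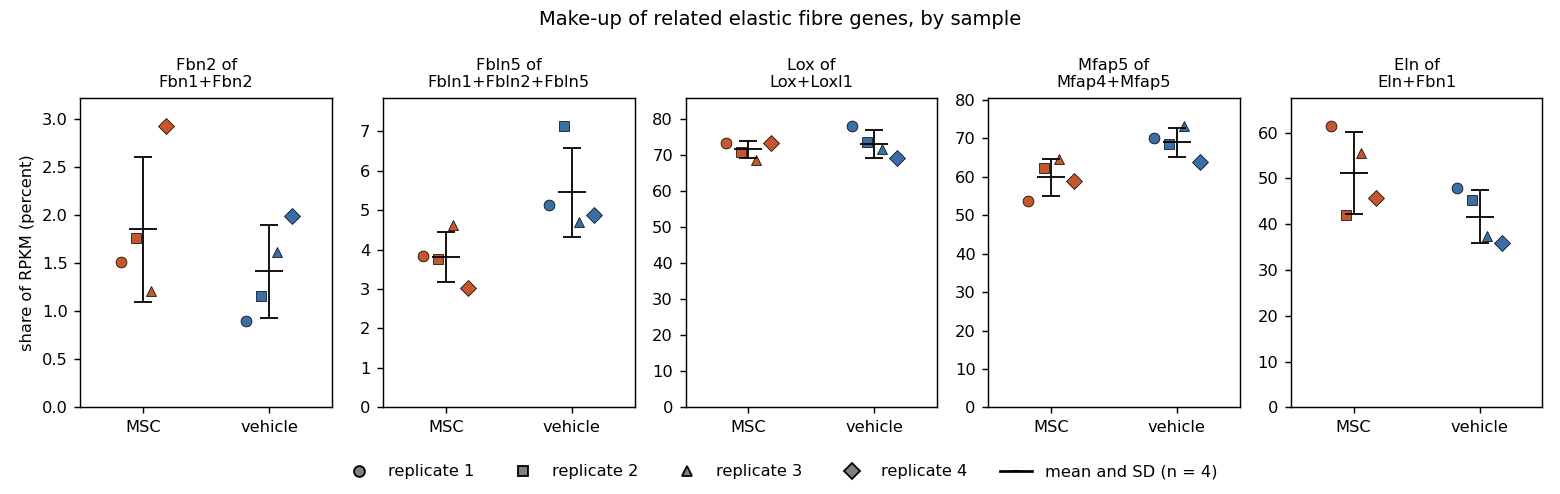
Share of summed RPKM (percent, axes from 0) held by the named gene in each MSC and vehicle sample, with mean and SD (n = 4 a group). The Fbln5 share is the only one of the 5 without overlap, at 3.04% to 4.61% in MSC and 4.69% to 7.13% in vehicle samples.

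Genes that act around the fibre were read from 3 lists in the same fit. Of 26 assembly partners 22 were tested, 0 had a limma adjusted p under 0.05 (0 by voom), and 4 had an unadjusted p under 0.05 (5 by voom), 2 higher and 2 lower in MSC veins, against 10.1% higher and 6.36% lower among all genes tested. Their median log2 fold change was 0.13, against 0.04 over all genes tested. Emilin1, an elastin-binding glycoprotein of the vessel wall, was at 33.6, 40.7, 36.4 and 40.8 RPKM in MSC veins, against 24.1, 28.3, 30.2 and 31.4 RPKM in vehicle veins. Its groups did not overlap, but it did not pass (log2 fold change 0.40, SE 0.11, limma adjusted p = 0.125). Ltbp2, a fibrillin-binding protein, had 10.8, 11.7, 8.30 and 14.9 RPKM in MSC veins, against 8.54, 6.06, 6.75 and 7.18 RPKM in vehicle veins (log2 fold change 0.59, SE 0.16, limma adjusted p = 0.130). Its groups overlapped, and of the fits with 1 sample left out, it passed the limma threshold only without MSC replicate 3. Fbln7, a further fibulin, had a log2 fold change of -0.38 and Efemp1, the gene of fibulin-3, one of -0.43 (limma adjusted p = 0.273 and 0.300). Efemp2, the gene of fibulin-4, had 0.11 and Mfap2, the gene of MAGP-1, 0.40. Emilin3, Adamtsl2, Thsd4 and Adamts17 were too low to be tested.

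Among the elastin-degrading proteases and inhibitors, Mmp12, Slpi and Mmp9 had the largest fold changes of the 3 lists. Their spread was large too. Of 17 proteases and inhibitors 14 were tested, 0 passed in limma (0 by voom), and 4 had an unadjusted p under 0.05 (4 by voom), all higher in MSC veins, against 10.1% higher among all genes tested. Groups did not overlap in 1 of the 14, against 5.61% higher without overlap among all genes tested. The median log2 fold change was 0.18, against 0.04 over all genes tested. Mmp12, macrophage elastase, was at 76.9, 21.6, 32.0 and 19.6 RPKM in MSC veins, against 4.43, 9.14, 10.7 and 14.9 RPKM in vehicle veins. The groups did not overlap, MSC replicate 1 stood well above the rest, and the log2 fold change was 1.72 (SE 0.44, 95% interval 0.72 to 2.71, limma adjusted p = 0.118). Mmp9, a gelatinase that also cleaves elastin, had 36.4, 33.0, 17.0 and 26.5 RPKM in MSC veins, against 5.18, 10.6, 11.7 and 18.1 RPKM in vehicle veins (log2 fold change 1.29, limma adjusted p = 0.121). Mmp14, a membrane-bound protease, had a log2 fold change of 0.42 (limma adjusted p = 0.186) and Slpi, an inhibitor of neutrophil elastase, one of 1.58 (limma adjusted p = 0.260). The proteases Mmp2, Ctsk, Ctsb, Ctsl and Ctss had log2 fold changes of 0.06 to 0.21, and Prtn3 had -0.42 (limma adjusted p = 0.432). Of the 14 tested genes, 11 had a log2 fold change above 0 and 3 below. Timp4 was at 0.0519, 0.137, 0.451 and 0.0472 RPKM in MSC veins, against 2.80, 1.81, 0.835 and 0.630 RPKM in vehicle veins. Elane, the neutrophil elastase gene, was near 0 in both groups, at 0.0266 to 0.117 RPKM in MSC veins, against 0.122 to 0.554 RPKM in vehicle veins. Its highest MSC and lowest vehicle values almost touched. Both genes were below the filter and got no test. Macrophage marker sums were highest in MSC replicate 1, at 4982 RPKM, as Mmp12, Mmp9 and Slpi were. Lyz2 gave 4067 RPKM of that sum. Cd68, Csf1r and Cd14 were also highest in that sample, but Adgre1 was highest in vehicle replicate 3 (133 RPKM) and Mrc1 in vehicle replicate 1 (189 RPKM). Neutrophil marker sums were close in MSC replicates 1 and 2, at 1316 and 1297 RPKM. The neutrophil genes Csf3r and Cxcr2 were highest in MSC replicate 2, at 82.1 and 31.5 RPKM. The part of macrophages and neutrophils in the protease levels was not tested.

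Receptors for elastin and microfibrils included 9 tested genes of 10, of which 0 passed in limma (0 by voom) and 4 had an unadjusted p under 0.05 (4 by voom), all higher in MSC veins, against 10.1% higher among all genes tested. Groups did not overlap in 3 of the 9, against 5.61% higher without overlap among all genes tested. The median log2 fold change was 0.13, against 0.04 over all genes tested. Itgb5, an integrin subunit that pairs with the alpha v chain, was at 41.1, 43.9, 37.3 and 46.6 RPKM in MSC veins, against 28.7, 29.4, 34.9 and 28.9 RPKM in vehicle veins. Its groups did not overlap (log2 fold change 0.46, SE 0.10, limma adjusted p = 0.0862). Ctsa and Neu1, which form a complex with the elastin-binding splice product of Glb1, had log2 fold changes of 0.32 and 0.21 without overlap (limma adjusted p = 0.116 and 0.201). Glb1 itself had 0.08 (limma adjusted p = 0.727). Lgals3, a galectin of macrophages, had 0.34 (limma adjusted p = 0.226). Macrophage marker sums lay above every vehicle sample in 3 of 4 MSC samples. Lyz2 made up most of each sum, at 2246 to 4067 RPKM in MSC and 1550 to 2439 RPKM in vehicle veins. Cd68 was higher in MSC veins without overlap, and Adgre1, Csf1r and Cd14 overlapped. Mrc1 was at 119 to 137 RPKM in MSC veins, against 189, 173, 151 and 86.1 RPKM in vehicle veins. The part of macrophages in the receptor values was not tested.

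**Figure D5:**
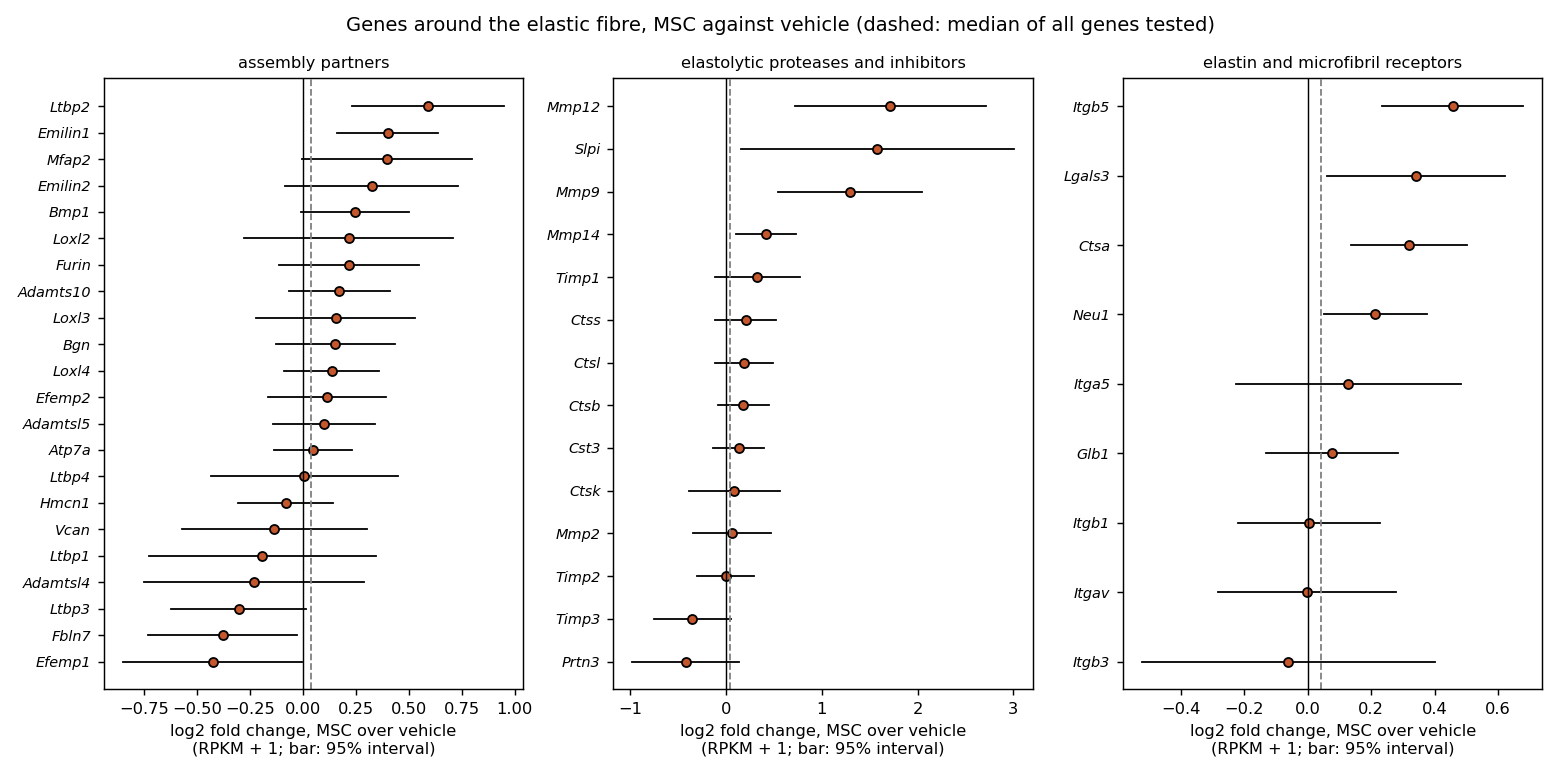
Log2 fold change of RPKM + 1, MSC over vehicle, with 95% intervals from limma, for the tested genes of the 3 lists (22 assembly partners, 14 proteases and inhibitors, 9 receptors; x axes differ). Mmp12 has the highest value, 1.72, and no gene passed the adjustment over all genes tested.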

How the data were processed

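The authors deposited RPKM values in 1 column per sample. Per the submitters' processing notes, reads were placed on build mm10. Libraries were made from 0.5 µg of total RNA with a TruSeq V2 kit, per the labels' protocols. Not given in the sources used here were the aligner, counter, annotation, strand use and filters.

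From these values, log2(RPKM + 1) was tested in limma 3.58.1 under R 4.3.3 (variance trend on, neither covariate nor block, 2-sided) for 12129 genes averaging 1 RPKM or more. Benjamini-Hochberg adjustment ran over all of them, with a threshold of 0.05. Fold changes on that scale understate the change of low genes. Whole reads were recovered from the RPKM steps for all 16164 genes above 0 in every sample (tolerance 0.001 reads); they cover counting error only and were used for depth and for limma voom. The limma step was tested on simulated data. Shares were tested with SciPy 1.17.1.

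The members and lists were chosen with earlier results of these data known. All 10 members are named; of each list the genes that pass and the 3 with the smallest unadjusted p are named, with others needed to describe it, and for likeness the 5 genes nearest to Eln and the 1 nearest to each other member. Alternatives covered the pseudocount, the filter, the scaling, sample weights, the variance trend, a replicate block, voom and each sample left out.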

Additional observations from a re-analysis of the deposited data

Results flagged for a closer look

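In 1 of 30 groups of 4 values (10 genes and 5 shares, in each of the MSC and vehicle groups), a single sample stood far from the others relative to the group's range. That was Fbn2 in vehicle replicate 3, at 1.68 RPKM, while the other vehicle samples lay between 1.28 and 1.29. The MSC samples ran from 1.079 to 3.05 RPKM, so the value lies inside the range of the other group. Chance flags about 1 group in 20.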

How the results depend on the processing

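The count of elastic fibre genes past the threshold stayed at 0 under all 18 alternatives to the limma fit, with adjusted p of at least 0.204. Over 179 refits of single members, 174 kept their direction and 5 turned, each with 1 sample left out; leave-one-out log2 fold changes ran from -0.34 to 0.050 for Fbn1, from -0.017 to 0.30 for Fbn2, from -0.31 to 0.21 for Lox and from -0.098 to 0.19 for Loxl1. Fbn2 could not be tested with a mean of at least 5 RPKM. At an unadjusted p under 0.05, Fbln2 and Mfap4 were reached without vehicle replicate 1, and Fbn1, Fbln5 and Mfap5 without vehicle replicate 4. The number of all genes past the threshold, 28 here, was 10 with a pseudocount of 0.1, 1 with no filter, 94 median-centred, 129 with quantile normalization, 73 with sample weights, and 0 to 170 with each sample left out (0 without MSC replicate 4 or vehicle replicate 2, with 1548 and 1512 at an unadjusted p under 0.05; 170 without MSC replicate 3). Of the assembly partners 0 to 1 passed with each sample left out, the 1 being Ltbp2; the other lists stayed at 0. The Lox share ran from -2.87 to 0.12 percentage points with a sample left out, turning only without vehicle replicate 1. Same-numbered samples did not deviate together (correlations of deviations 0.143, -0.00282, -0.332 and -0.122 for replicates 1 to 4). The labels used here do not say whether the numbers pair samples. Correlations of deviations centred within groups of 4 cannot decide it. With the replicate number as a block, 0 of all genes and 0 elastic fibre genes passed (1768 and 1 with an unadjusted p under 0.05, the 1 being Mfap4, p = 0.0198, limma adjusted p = 0.269), and the Fbln5 share had an exact sign-flip p = 0.125, the smallest that 4 pairs allow. With 1 sample left out, no exact permutation p can go below 0.0571. Members had at least 526 reads in each sample, and 4 samples a group limit the fold changes that could be detected.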
